A study of Mus musculus with 45 samples.

Results

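The 10 genes described here encode the main transporters, channels and carbonic anhydrases that the surface of the mouse colon uses to take up salt and water, together with the chloride channel through which it secretes. They were found by symbol in a table of RNA-seq counts per gene, in which they are 10 of 24918 entries, each with a single entry, and all 10 passed the filter on low counts. The RNA came from the colonic epithelium of male C57BL/6J mice (C57BL/6 in the labels), 6 weeks old at the start of feeding, whose whole colon was removed and whose epithelium was released with EDTA. Control mice (LF) were kept for 20 weeks on low-fat food, in which fat gave 10% of the energy, and obese mice (HF) for the same 20 weeks on high-fat food at 60%. Formerly obese mice (HFLF) had the high-fat food for 15 weeks before a switch to the low-fat food for the last 5 weeks. There were 5 mice per group, each with its own library. Obesity was induced by diet alone, with no genetic change, and because the whole colon was taken, each library mixes the proximal and distal segments in a share that the design does not fix.

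In the colon, most salt is absorbed without a net charge: the sodium-hydrogen exchangers Slc9a3 (NHE3) and Slc9a2 (NHE2) take up sodium while the chloride-bicarbonate exchanger Slc26a3 (DRA) takes up chloride, and carbonic anhydrases such as the cytosolic Car1 and the membrane-anchored Car4 interconvert the carbon dioxide, bicarbonate and protons that the exchange needs. In the distal colon, sodium also enters through the epithelial sodium channel ENaC, made of the subunits Scnn1a, Scnn1b and Scnn1g and raised by aldosterone. Aqp8 is a water channel of surface colonocytes, and Cftr is the chloride channel of the crypts that drives fluid secretion.

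The 15 libraries held 15230391 to 22762095 gene counts, with 15463 to 16083 genes at 1 count or more, and replicates all differed by more than sampling noise. Control replicate 4 stood farther from its group than the other control libraries. Its chi-square per degree of freedom was 14.3 to 20.7 against the other 4 control libraries, where pairs among those 4 gave 5.72 to 11.5. Formerly obese replicate 3 was similarly far from its group, at 12.8 to 20.2. Pairs among the remaining formerly obese libraries gave 7.20 to 16.5. For the epithelial label, the epithelial marker list (Epcam, keratins, Cdx1 and Cdx2) summed to 13172 to 15120 CPM (counts scaled to a common library size) in each library with no member called in any comparison. Markers of other cells were low but present, with the highest sum in any library at 62.6 CPM for 10 immune genes, 30.7 CPM for 6 fibroblast genes, 12.1 CPM for the adipocyte list, 9.03 CPM for 5 endothelial genes and 2.89 CPM for 7 smooth muscle genes. In bulk RNA, fewer cells of a type and less RNA per cell cannot be told apart.

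The 10 genes spanned 3 orders of abundance. Per kilobase of exon (RPKM, CPM divided by the exon length from RefSeq), Car1 was the highest with a mean of 3619.6 ± 1523 (SD, n = 15), followed by Car4 at 386 ± 63.0 and Slc26a3 at 355 ± 83.0, which overlapped in range. Aqp8 came next at 197 ± 39.2 RPKM, then Slc9a2 at 118 ± 9.82 and Cftr at 58.0 ± 3.30. Slc9a2 was the more abundant of the sodium-hydrogen exchangers in these libraries, as Slc9a3 reached 16.9 ± 5.78 RPKM. The ENaC subunits were unequal, since Scnn1a averaged 33.0 ± 2.15 RPKM while Scnn1b averaged 3.68 ± 0.766 and Scnn1g 2.32 ± 1.2, and these last 2 overlapped in range. Aqp8 and Slc26a3 overlapped at their edges, and the other neighbours in this order did not overlap in any mouse. Car1 alone took 0.203% to 0.958% of the counts of a library and ranked between 1 and 25 among all genes by counts. At the other end, Scnn1g rested on 23 to 218 counts per library and Scnn1b on 84 to 238, so their values carry the most counting error.

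**Figure D1:**
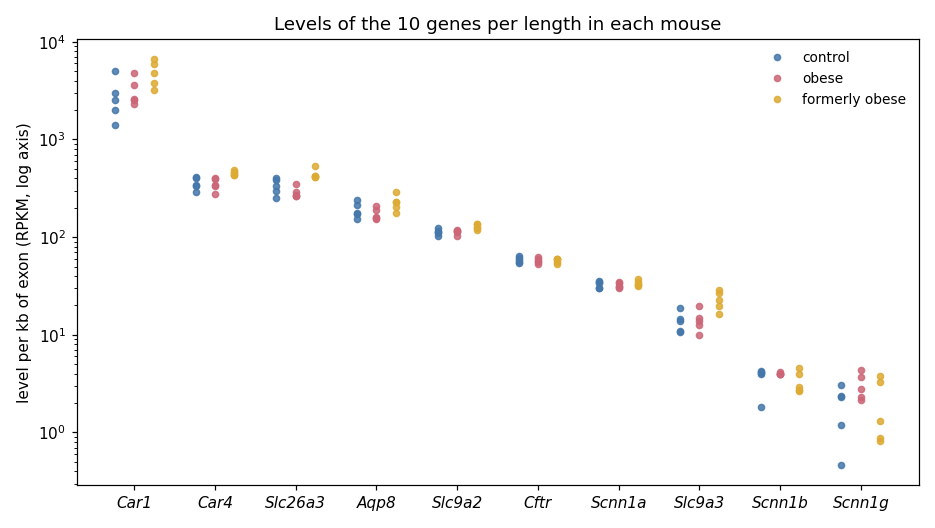
Level per kilobase of exon (RPKM, log axis) of each of the 10 genes in each mouse, genes ordered by their mean over 15 mice; points are mice, colored by group. Car1 lay at the top with a mean of 3619.6 RPKM and Scnn1g at the bottom with 2.32, and Scnn1g and Car1 were the most spread.

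The promoters of 5 genes are shown because the results turn on these genes: Slc26a3, Slc9a3 and Car4 were the members called between groups, and Scnn1b and Scnn1g varied together among mice. Each is the 250 bases before the gene start in RefSeq (GRCm38.p6, plus strand), at chr12:31437969-31438218, chr13:74121163-74121412, chr11:84957504-84957753, chr7:121864788-121865037 and chr7:121734229-121734478 in that order; capitals mark matches to the GC box GGGCGG or the CDX-type motif TTTATG on either strand. For Slc9a3 and Scnn1g, the gene start behind these windows lies some bases before that of the gene model used for lengths.
Slc26a3: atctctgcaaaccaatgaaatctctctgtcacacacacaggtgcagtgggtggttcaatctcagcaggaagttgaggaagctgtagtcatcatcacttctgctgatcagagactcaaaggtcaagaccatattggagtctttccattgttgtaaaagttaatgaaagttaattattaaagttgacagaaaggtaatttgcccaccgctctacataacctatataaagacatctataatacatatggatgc
Slc9a3: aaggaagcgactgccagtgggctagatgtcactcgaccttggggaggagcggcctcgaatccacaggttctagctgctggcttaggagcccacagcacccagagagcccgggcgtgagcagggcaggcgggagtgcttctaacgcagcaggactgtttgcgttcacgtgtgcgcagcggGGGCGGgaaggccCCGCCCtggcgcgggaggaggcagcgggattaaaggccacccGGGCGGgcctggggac
Car4: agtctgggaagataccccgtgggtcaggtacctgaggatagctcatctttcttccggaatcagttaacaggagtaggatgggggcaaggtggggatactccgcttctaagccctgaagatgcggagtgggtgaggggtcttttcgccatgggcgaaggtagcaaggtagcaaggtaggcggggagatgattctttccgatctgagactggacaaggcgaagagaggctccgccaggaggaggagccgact
Scnn1b: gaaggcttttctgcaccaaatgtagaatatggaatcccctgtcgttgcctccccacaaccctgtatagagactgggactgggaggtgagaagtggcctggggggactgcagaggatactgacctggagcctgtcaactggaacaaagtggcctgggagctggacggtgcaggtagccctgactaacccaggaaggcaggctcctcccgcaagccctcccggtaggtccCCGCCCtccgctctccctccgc
Scnn1g: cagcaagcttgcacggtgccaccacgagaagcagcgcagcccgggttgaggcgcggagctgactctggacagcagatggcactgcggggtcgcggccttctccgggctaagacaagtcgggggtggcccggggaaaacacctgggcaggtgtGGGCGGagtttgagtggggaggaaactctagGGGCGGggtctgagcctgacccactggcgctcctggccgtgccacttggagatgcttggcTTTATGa

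The promoters of the members called between groups were not alike in base composition, with 38.8% GC for Slc26a3, 56.4% for Car4 and 67.6% for Slc9a3 against a median of 52.4% over 32851 promoter windows. The GC box occurred 3 times in Slc9a3, 2 times in Scnn1g, 1 time in Scnn1b and 6 times in Cftr, whose window was the richest in GC (76.4%), and was not found in Slc26a3, Car4 or Aqp8 (52.4% GC); 32.7% of all windows hold at least 1. Among the 7 members with a window, the CDX-type motif was found in Scnn1g only, and it is in 10.8% of all windows. A HOX13-type motif (TTTACGA) and a GATA-type motif (AGATAA), also searched on both strands, matched none of these 7 and 0.478% and 9.99% of all windows. A match is a run of letters, not a binding site. The windows of Slc9a2, Scnn1a and Car1 were not analysed here.

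The first comparison asked how the colon of obese mice differed from that of control mice while the high-fat diet was being eaten. None of the 10 genes was called, where a call needed a fold change over 1.2, a p under 0.01 and an adjusted p under 0.25 in edgeR's quasi-likelihood test, the cutoffs of the study. Over all 12961 genes tested, 1.58% were called. No member had an unadjusted p under 0.05 in edgeR or DESeq2, DESeq2 also called 0, and 4 of 10 log2 fold changes were above 0, with a median of -0.01 against 0.00 over all genes. The intervals show how far this reaches: Slc9a2 differed by 0.00 on the log2 scale (95% interval -0.11 to 0.11), Scnn1a by -0.03 (-0.15 to 0.10), Cftr by -0.02 (-0.13 to 0.10) and Car4 by -0.03 (-0.24 to 0.18). Slc26a3 had the smallest p of the 10, with 939 ± 116 CPM in obese and 1093 ± 207 CPM in control mice (SD, n = 5 each) and a log2 fold change of -0.22 (SE 0.12, adjusted p = 0.515). The intervals of Scnn1g, at 0.72 (-0.22 to 1.65), and Car1, at 0.18 (-0.43 to 0.78), were wide and leave room for larger changes.

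The next comparisons asked how the colon stood in formerly obese mice, 5 weeks after the switch to the low-fat diet. Slc26a3, Slc9a3 and Car4 rose against control mice and against obese mice, so that 3 of 10 genes were called in each comparison, all of them higher. Over all genes, 3.72% were called between formerly obese and control mice (1.85% higher) and 2.65% between formerly obese and obese mice (1.23% higher). An unadjusted p under 0.05 in edgeR was reached by 5 of 10 members against control and 6 of 10 against obese mice, beside 2169 and 1731 of 12961 genes. The comparisons share the formerly obese libraries and are not independent of each other. Of the 10 genes, 7 had their highest group mean in formerly obese mice, and the median log2 fold change over the 10 was 0.21 against control and 0.28 against obese mice, where the median over all genes was 0.00 in both. Without control replicate 4, which stood apart from the other control mice, the 3 calls against control mice were kept and Car1 joined them. Without formerly obese replicate 3, which was similarly far from its group, 3 members were called against control mice.

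**Figure D2:**
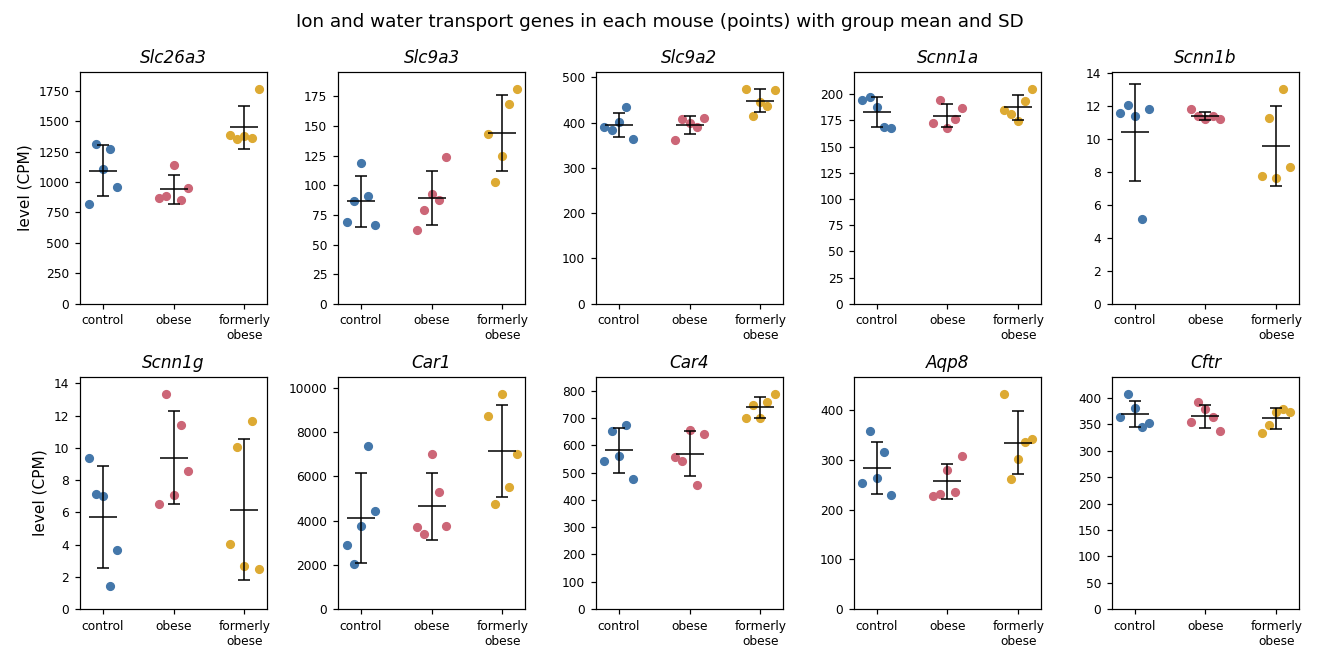
Level (CPM, linear axis from 0) of each gene in each mouse; points are mice in the order of their replicate number, and black marks are the group mean and SD (n = 5). For Slc26a3 and Car4, the 5 formerly obese mice lie above the 5 control and the 5 obese mice.

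Slc26a3, the chloride-bicarbonate exchanger, was measured at 1386, 1354, 1379.5, 1361 and 1764 CPM in formerly obese replicates 1 to 5. In control mice the values were 818, 1311, 1104, 1270.4 and 960.3 CPM, and in obese mice 872, 882, 1136, 854 and 954 CPM. The lowest formerly obese mouse was above the highest control and the highest obese mouse. The log2 fold change was 0.41 against control mice (SE 0.12, adjusted p = 0.0818) and 0.62 against obese mice (SE 0.12, adjusted p = 0.0433). The call against control mice was lost without control replicate 5, at 0.36, or without formerly obese replicate 5, at 0.33, while the call against obese mice was kept whichever mouse was left out.

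Slc9a3, the sodium-hydrogen exchanger NHE3, showed the largest fold change of the called members. Its values were 143, 103, 124, 169 and 181 CPM in formerly obese replicates 1 to 5, against 68.8, 86.6, 119, 90.9 and 66.5 CPM in control mice and 62.1, 78.8, 92.7, 87.6 and 124 CPM in obese mice. The groups overlapped, since formerly obese replicate 2 lay below the highest control and the highest obese mouse, and 4 of 5 formerly obese mice were above all control mice. The log2 fold change was 0.74 (SE 0.18, adjusted p = 0.0453) against control mice and 0.69 (SE 0.18, adjusted p = 0.100) against obese mice. The call against obese mice was lost without formerly obese replicate 5, at 0.60.

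Slc9a2, the related exchanger NHE2, differed by less and did not pass the fold cutoff. It was measured at 474, 415, 445, 436 and 472 CPM in formerly obese replicates 1 to 5, at 390.5, 383, 402, 434 and 363 CPM in control mice and at 362, 407, 399.7, 391 and 411 CPM in obese mice. All 5 formerly obese mice were above all obese mice, and 4 of 5 were above all control mice. The log2 fold change was 0.18 against control mice (SE 0.05, adjusted p = 0.0826) and 0.19 against obese mice (SE 0.05, adjusted p = 0.126), a fold of 1.14 in both, under the cutoff of 1.2.

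Car4, the carbonic anhydrase anchored in the apical membrane, rose with the smallest spread among the called members. The formerly obese replicates 1 to 5 gave 698, 746, 700.3, 759.9 and 787 CPM, the control mice 544, 653, 559, 675 and 477 CPM, and the obese mice 556, 541, 656, 455 and 641 CPM. No formerly obese mouse overlapped with a control or an obese mouse. The log2 fold change was 0.34 (SE 0.10, adjusted p = 0.0762) against control and 0.37 (SE 0.10, adjusted p = 0.0925) against obese mice, and the call was kept in both comparisons whichever mouse was left out. With Slc26a3, Car4 made 2 of 10 genes whose formerly obese and control values did not overlap, all higher, where 1.75% of all genes did so, and with Slc26a3 and Slc9a2 it made 3 of 10 whose formerly obese and obese values did not overlap, where 1.49% did so.

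Car1, the cytosolic carbonic anhydrase, had high group means in formerly obese mice but also a wide spread within each group. Its values were 8706, 4741, 9702, 5509 and 6985 CPM in formerly obese replicates 1 to 5, 2911, 2054, 3741, 7387 and 4419.8 CPM in control mice, and 3726, 3408, 7000.1, 5273 and 3762 CPM in obese mice. The groups overlapped, and control replicate 4 and obese replicate 3 were as high as formerly obese mice. The log2 fold change of 0.80 against control mice (SE 0.29, adjusted p = 0.160) and of 0.62 against obese mice (SE 0.29, adjusted p = 0.357) were not called. Against control mice, Car1 was called without control replicate 4, at 1.12, or without formerly obese replicate 2, at 0.91.

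Aqp8, the water channel, was not called in any comparison. It stood at 432, 261, 302, 337 and 343 CPM in formerly obese replicates 1 to 5, at 254, 359, 264, 315 and 230.0 CPM in control mice and at 228, 232, 281, 237 and 308 CPM in obese mice. The log2 fold change was 0.38 against obese mice (95% interval 0.10 to 0.66, adjusted p = 0.205), with 3 of 5 formerly obese mice above all obese mice, and 0.24 against control mice (-0.04 to 0.51, adjusted p = 0.385). Against obese mice, Aqp8 just missed the p cutoff and passed it under DESeq2, at 0.38, and without obese replicate 5 (0.46), formerly obese replicate 2 (0.46) or formerly obese replicate 3 (0.41).

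The ENaC subunits and Cftr did not pass the test in formerly obese mice. Scnn1a, the alpha subunit of ENaC, kept to 167 to 205 CPM over all 15 mice, and Cftr to 333 to 407 CPM. Against control mice, Scnn1a differed by 0.04 on the log2 scale (95% interval -0.09 to 0.16) and Cftr by -0.03 (-0.15 to 0.08), and against obese mice by 0.06 (-0.06 to 0.19) and -0.01 (-0.13 to 0.10). For both genes, fold changes over 1.2 in either direction lay outside these 4 intervals. Scnn1b, with -0.12 (-0.52 to 0.28) against control and -0.25 (-0.65 to 0.14) against obese mice, and Scnn1g, with 0.10 (-0.85 to 1.05) and -0.62 (-1.54 to 0.30), were measured too loosely for such a bound.

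**Figure D3:**
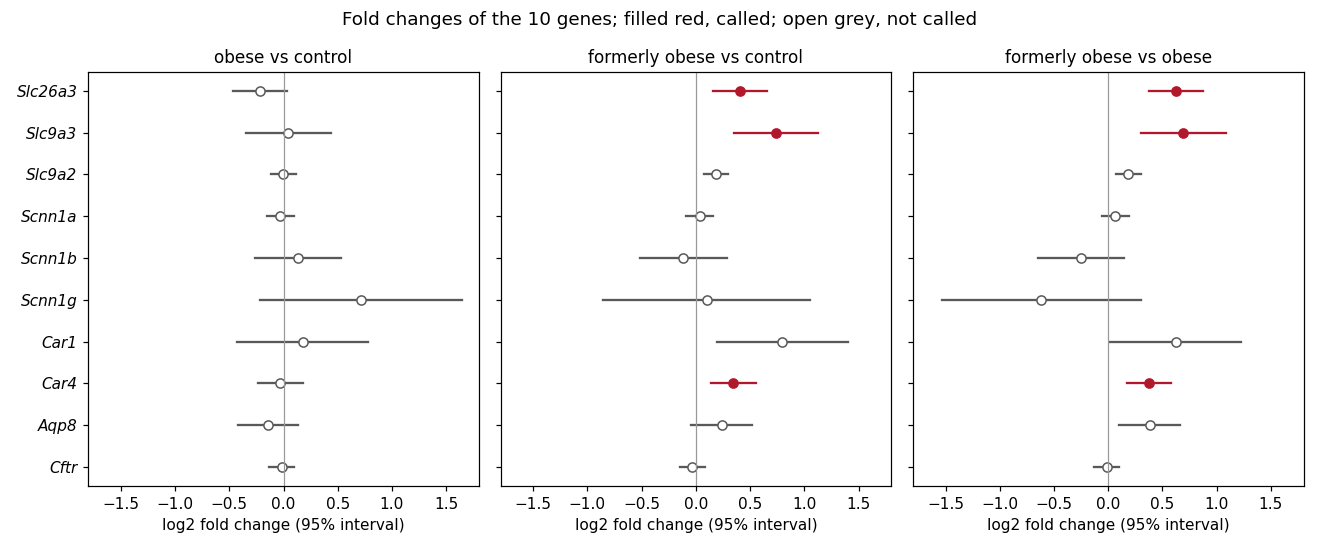
Log2 fold change (first group over second) of each gene in the 3 comparisons, with its 95% interval; filled red points passed the call rule and open grey points did not. Slc26a3, Slc9a3 and Car4 are called in both comparisons of formerly obese mice and no gene in the comparison of obese with control mice.

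The ENaC subunits Scnn1b and Scnn1g and the enzyme Car1 varied far more among mice of one group than most genes. The pooled SD of log2 CPM within groups was 0.89 for Scnn1g, larger than that of 99.6% of the genes tested, 0.53 for Car1 (96.0%), 0.36 for Scnn1b (87.7%) and 0.35 for Slc9a3 (86.6%), beside a median of 0.13 over all genes. The least variable members were Slc9a2 (0.08), Cftr (0.09) and Scnn1a (0.10), and Car4 (0.18), Slc26a3 (0.21) and Aqp8 (0.24) lay between.

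Scnn1g values were 9.34, 7.14, 7.01, 1.42 and 3.67 CPM in control replicates 1 to 5, 6.54, 13.3, 7.08, 11.4 and 8.59 CPM in obese mice, and 4.02, 10.0, 2.67, 11.7 and 2.49 CPM in formerly obese mice. Scnn1b values were 11.6, 12.1, 11.4, 5.17 and 11.8 CPM, 11.8, 11.4, 11.2, 11.4 and 11.2 CPM, and 7.75, 11.3, 7.65, 13 and 8.31 CPM in the same order. Scnn1b fell into a lower set of 4 mice (control replicate 4 and formerly obese replicates 1, 3 and 5) at 5.17 to 8.31 CPM and a set of 11 mice at 11.2 to 13 CPM. Within the lower set, control replicate 4 lay apart at 5.17 CPM, below the formerly obese mice at 7.65 to 8.31 CPM. The lower set holds control replicate 4 and formerly obese replicate 3, whose libraries stood far from their groups. In formerly obese mice, the 3 with low Scnn1b also had the lowest Scnn1g (2.49 to 4.02 CPM against 10.0 and 11.7) and the highest Car1 (6985 to 9702 CPM against 4741 and 5509). Control replicate 4 was likewise the lowest control mouse for both subunits and the highest for Car1. Control replicate 5 did not share this pattern, as its Scnn1g was low at 3.67 CPM while its Scnn1b was among the 11 mice of the upper set.

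Over the 15 mice with the group means removed, Scnn1b and Scnn1g correlated with each other (Pearson's r = 0.84, Spearman's rho = 0.78), and r was 0.72 without the 2 mice farthest from the median. Car1 ran against them, with r = -0.75 (rho = -0.75) for Scnn1g, -0.75 (rho = -0.79) for Scnn1b and -0.69 (rho = -0.62) for Scnn1a. Without the 2 farthest mice these were -0.64, -0.61 and -0.75. In the obese group, where Scnn1b varied little, Scnn1b and Scnn1g did not rise together. These values describe 15 libraries that share depth and tissue sampling, and genes with few counts carry more noise.

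**Figure D4:**
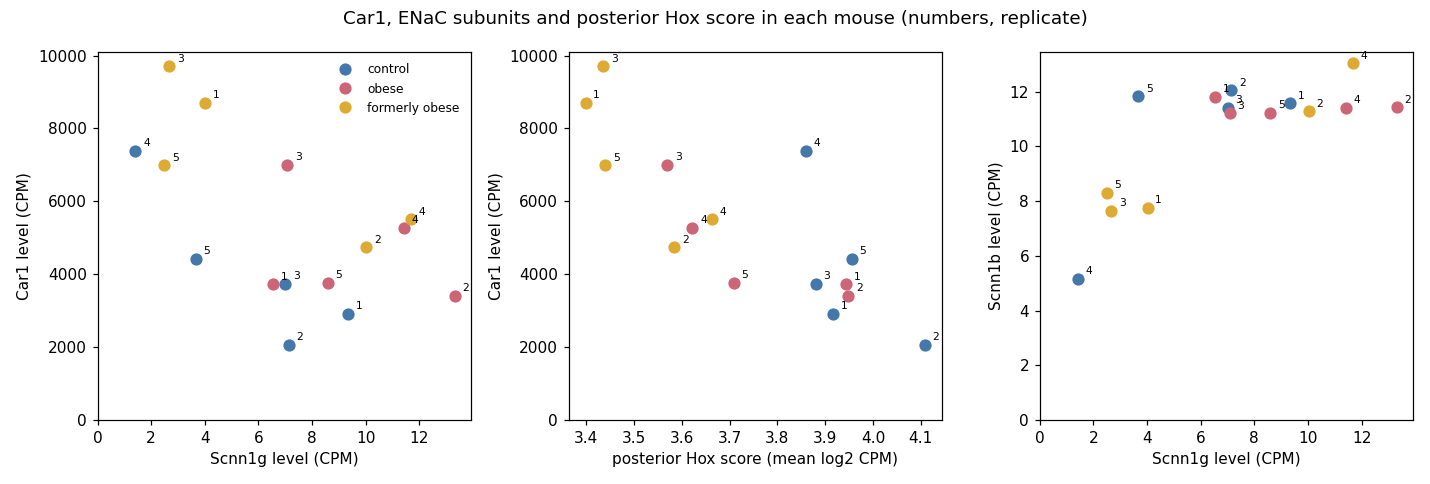
Car1 level against Scnn1g level (left), Car1 level against the posterior Hox score (middle) and Scnn1b level against Scnn1g level (right), in CPM or mean log2 CPM, for each of 15 mice colored by group and numbered by replicate. Control replicate 4 and formerly obese replicates 1, 3 and 5 had low Scnn1g, low Scnn1b and high Car1, whereas control replicate 5 had low Scnn1g (3.67 CPM) with Scnn1b at 11.8 CPM and Car1 at 4419.8 CPM.

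The absorptive genes formed a pattern of their own. All 10 pairs among Slc26a3, Slc9a3, Slc9a2, Car4 and Aqp8 were positively correlated over the 15 mice with the group means removed, with r from 0.41 to 0.73 (highest for Slc26a3 with Car4), and the 10 pairs of Scnn1b or Scnn1g with these 5 genes were all negative, from -0.70 to -0.08. Within each group of 5 mice taken alone, 8 of the first 10 pairs were positive in every group, and in formerly obese mice Car4 had r = -0.25 with Aqp8 and -0.10 with Slc9a2. Of the other 10 pairs, 6 were negative in every group, and the exceptions were Car4 with Scnn1b (0.50) and Scnn1g (0.22) in formerly obese mice and Scnn1g with Slc9a2 (0.53) and Slc9a3 (0.12) in obese mice. Of all 45 pairs of members, 28 were positive and 17 negative. Cftr was positive with the 3 ENaC subunits (0.47 for Scnn1a, 0.38 for Scnn1b and 0.34 for Scnn1g), negative with Car1 (-0.36) and between -0.10 and 0.28 with the absorptive genes. These groupings were made after the values were seen and are given without a test.

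**Figure D5:**
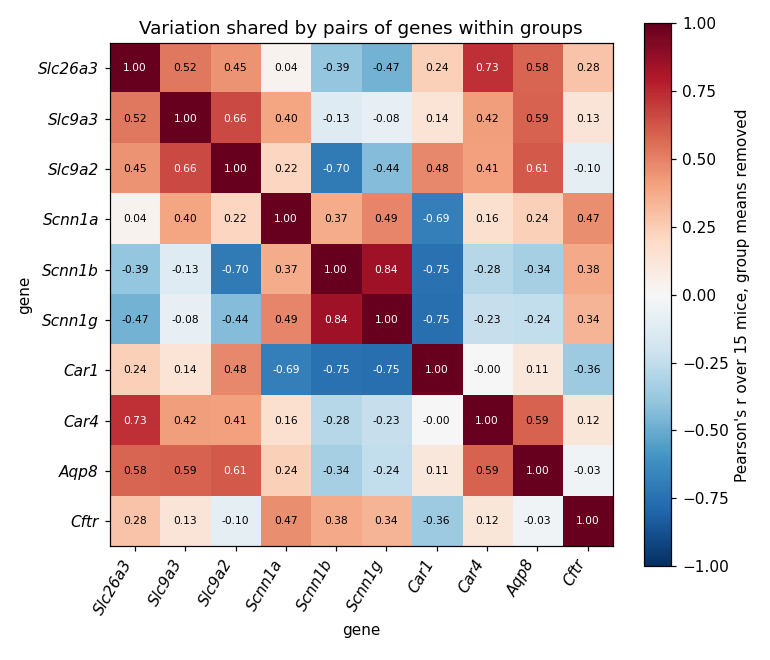
Pearson's r between each pair of the 10 genes over 15 mice, from log2 CPM with the group means removed; red is positive and blue negative. The absorptive genes Slc26a3, Slc9a3, Slc9a2, Car4 and Aqp8 share positive values (0.41 to 0.73) in this pooled measure, and Car1 is negative with all 3 ENaC subunits.

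The genes most like 4 of the members in this within-group variation were searched over 11035 genes. For Slc26a3 they were Mterfd3 (r = 0.85), Trpm6 (0.83), an epithelial magnesium channel, and Mep1b (0.83), a brush border protease. For Slc9a3 they were the citrate and dicarboxylate transporter Slc13a2 (0.85), the glycosyltransferase Gcnt2 (0.84) and again Mep1b (0.82). For Aqp8 they were C530008M17Rik (0.87), Rhoc (0.86) and Cnnm4 (0.85). For Scnn1b they were the DNA repair gene Ercc6 (0.95), the RNA-binding protein gene Rbm6 (0.95) and the entry 9430008C03Rik (0.93). Spearman's rho for these pairs ran from 0.68 (Slc26a3 with Trpm6) to 0.92 (Scnn1b with Ercc6). The highest of 11035 correlations over 15 mice can be large for unrelated genes, so these names are a description, and a shared function was not tested.

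Markers of position along the colon also differed between groups. Posterior Hox genes are used most in the distal colon, and of the 9 tested genes of the list of posterior Hox and Prac genes, 7 were called lower in formerly obese than in control mice (median log2 fold change -0.45), 2 were called lower in formerly obese than in obese mice, and 1 lower in obese than in control mice. The summed level of the list was 485 to 606 CPM in control, 424 to 549.8 CPM in obese and 351 to 455 CPM in formerly obese mice. Hoxb13 was at 353 ± 29.8 CPM in control, 319.6 ± 32.8 CPM in obese and 275 ± 30.3 CPM in formerly obese mice (SD, n = 5 each). The score of the list, the average of log2 CPM over those 9 genes, was 3.86 to 4.11 in control mice and 3.40 to 3.66 in formerly obese mice, with no overlap. In obese mice, the score was 3.57 to 3.95 and overlapped both other groups. Within groups, Car1 ran against this score (r = -0.75, rho = -0.84, and -0.75 without the 2 farthest mice, n = 15), and Scnn1b ran with it (r = 0.48, rho = 0.67). Slc9a2 also ran against it (r = -0.50, rho = -0.54, and -0.36 without the 2 farthest mice). The called members gave r = -0.19 for Slc26a3, -0.36 for Slc9a3 and 0.02 for Car4. Without the 2 farthest mice these were -0.39, -0.21 and -0.22. Such values within groups do not speak to differences between groups, and the part of position in the calls was not tested.

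With the posterior Hox score as a further term, an alternative chosen after seeing the data, 0 members were called in any comparison. Car4 kept its log2 fold changes of 0.34 and 0.37, Slc26a3 went to 0.26 against control and 0.54 against obese mice, Slc9a3 to 0.36 and 0.49, and Car1 turned to -0.48 and -0.13. Because the score does not overlap between formerly obese and control mice, score and group cannot be told apart there, and that fit called 0 of all genes against control mice. Between formerly obese and obese mice, where the score overlaps, it called 41 of 12961 genes, beside 343 without the score. Between obese and control mice it called 18, beside 205. A contrast of a distal with a more proximal transporter, log2 CPM of Scnn1g minus that of Slc9a3, spanned -5.89 to -2.86 in control, -3.84 to -2.55 in obese and -6.12 to -3.34 in formerly obese mice, and the groups overlapped. Slc9a3 is itself a called member and Scnn1g rests on 23 to 218 counts, so this contrast is not a separate measure of the share of segments.

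Other marker lists also differed between groups. Of 10 surface colonocyte genes, 5 were called higher in formerly obese than in control mice and 2 higher than in obese mice. The log2 fold change was above 0 for 9 of the 10 against control mice (median 0.29) and for 10 against obese mice (median 0.20). Between obese and control mice, 1 was called, lower in obese mice, and 8 were above 0 (median 0.11). The summed level was 15676 to 19444 CPM in control, 16392 to 18580.4 CPM in obese and 18513 to 20078 CPM in formerly obese mice. Of 13 tested genes of the small intestine list, 5 were called higher in formerly obese than in control mice and 0 in formerly obese compared with obese mice. In obese compared with control mice, 2 of this list were called higher. Its sums were 1531 to 1869.6 CPM in control, 1707 to 2037 CPM in obese and 1944 to 2179 CPM in formerly obese mice. Fabp2, the intestinal fatty acid binding protein, was at 563 ± 131 CPM in formerly obese and 372 ± 126 CPM in control mice, and Sis, the sucrase of the small intestine, at 48.7 ± 12.6 and 29.7 ± 10.8 CPM. The lists of stem and proliferating cells and of goblet cells had 0 calls in both comparisons of formerly obese mice. Of 3 tested tuft cell genes, 2 were called higher in formerly obese than in control mice, Trpm5 (log2 fold change 0.41) and Dclk1 (0.32), and the list summed to 29.7 to 43.8 CPM in control and 41.2 to 55.4 CPM in formerly obese mice. Cidec, a lipid droplet protein and the single tested gene of the adipocyte list, was called higher in formerly obese than in control mice (0.93), with sums of 2.88 to 5.48 and 4.89 to 12.1 CPM, while Adipoq of that list had at most 2 counts in a library. Of 8 enteroendocrine genes, Pyy, a peptide hormone, was called lower in formerly obese than in obese mice (-0.35). The 4 tested fibroblast genes had no call and a median log2 fold change of 1.09 against control mice, with sums of 2.34 to 10.9 CPM in control and 6.02 to 30.7 CPM in formerly obese mice, and the 8 tested immune genes had no call and a median of 0.34, with sums of 23.6 to 43.4 and 27.1 to 55.6 CPM. Trpm5, Dclk1, Cidec and Pyy were named after their values were seen. The part of these markers in the transporter results was not tested.

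The wider set of transport genes held 135 entries besides the 10 members, of which 95 were tested: sodium-hydrogen exchangers and their scaffolds, SLC26 and SLC4 anion transporters, carbonic anhydrases, aquaporins, pumps, potassium and chloride channels, ENaC regulators and guanylin signalling. In obese compared with control mice, 2 of the 95 were called, both higher, against 1.58% of all genes called and 0.718% called higher. Slc4a11, of the SLC4 family, was at 1.47 ± 0.320 CPM in obese and 0.454 ± 0.110 CPM in control mice (log2 fold change 1.67, SE 0.29, adjusted p = 0.0328), from 5 to 30 counts per library. Sgk1, the aldosterone- and glucocorticoid-induced kinase that raises ENaC at the cell surface, was at 236 ± 48.9 CPM in obese and 156 ± 24.6 CPM in control mice (log2 fold change 0.60, SE 0.13, adjusted p = 0.0918). The Sgk1 call was lost without obese replicate 3, at 0.56, and the number of called genes ranged from 1 without that mouse to 5 without control replicate 4.

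In formerly obese compared with control mice, 6 of the 95 were called, all higher, against 3.72% of all genes called and 1.85% called higher. The list of ENaC control and mineralocorticoid response held 4 of them, of 20 tested: Sgk2 (log2 fold change 0.72, SE 0.14, adjusted p = 0.0221), a kinase related to Sgk1, Fkbp5 (0.45, SE 0.11, adjusted p = 0.0350) and Tsc22d3 (0.29, SE 0.09, adjusted p = 0.114), both steroid receptor targets, and Sgk1 (0.40, SE 0.13, adjusted p = 0.124). The others were Prkg2 (0.42, SE 0.09, adjusted p = 0.0260), the cGMP-dependent kinase through which guanylin acts on transporters, and Car12 (0.43, SE 0.14, adjusted p = 0.114), a membrane carbonic anhydrase. Sgk2, Fkbp5 and Prkg2 kept their call whichever mouse was left out, whereas Tsc22d3 lost it in 5, Car12 in 5 and Sgk1 in 7 of 10 such fits, with log2 fold changes from 0.23 to 0.33, 0.32 to 0.49 and 0.34 to 0.48. The number called fell to 3 without control replicate 1 or without formerly obese replicate 3 and reached 10 without control replicate 4.

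In formerly obese compared with obese mice, 8 of the 95 were called, against 2.65% of all genes, 6 of them higher and 2 lower. Slc4a11 fell by 1.19 on the log2 scale (SE 0.27, adjusted p = 0.0623). Those with the smallest p among the higher ones were Chp1 (0.28, SE 0.06, adjusted p = 0.0541), a cofactor of sodium-hydrogen exchangers, Car3 (0.88, SE 0.27, adjusted p = 0.152), at 8 to 31 counts per library, Guca2a (0.29, SE 0.09, adjusted p = 0.154), which encodes guanylin, Sgk2 (0.41, SE 0.13, adjusted p = 0.176) and Fkbp5 (0.32, SE 0.10, adjusted p = 0.177). The other called genes, named after their values were seen, were Slc26a2, a sulfate transporter, higher (0.27), and Per1, a clock gene, lower (-0.43). Of these 8 calls, only that of Slc4a11 was kept whichever mouse was left out. The call was lost in 2 of 10 such fits for Chp1, 4 for Car3, 5 each for Guca2a and Fkbp5, 6 for Per1 and 7 each for Sgk2 and Slc26a2, and the number called fell to 2 without obese replicate 1 or without obese replicate 2, to 3 without formerly obese replicate 5 and to 4 without obese replicate 5 or without formerly obese replicate 3. The median log2 fold change over the 95 genes was 0.01, 0.04 and 0.03 in the 3 comparisons.

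DNA methylation around the members was read from the list of 8199 regions that differed between obese and control mice (DMRs), which gives a position and a direction per region and no value per mouse. Within 10 kb of the gene body, 2 of 10 members had a DMR, beside 20.6% of all tested genes, and both lay inside the gene, where 12.3% of all genes had one. In Slc9a2, a region of 9 bases and 3 CpGs in intron 1 (chr1:40691652-40691660, GRCm38) had less methylation in obese mice. In Cftr, a region of 5 bases and 2 CpGs in intron 24 (chr6:18313998-18314002) had more. Within 50 kb, 4 of 10 members had a DMR, beside 43.8% of all genes, since Scnn1a had one at 11.5 kb and Scnn1g one at 40.1 kb (chr7:121808546-121808575), both with less methylation. The last lies between Scnn1g and Scnn1b, neighbours 96.6 kb apart on chromosome 7, and at 56.5 kb from Scnn1b. The regions are shown with 20 bases on each side (plus strand), with the CpGs inside the region in capitals, because these are the other readout that touches the members.
Slc9a2 intron: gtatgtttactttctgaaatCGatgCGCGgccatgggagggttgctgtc
Cftr intron: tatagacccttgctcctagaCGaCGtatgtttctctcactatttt
Scnn1g to Scnn1b: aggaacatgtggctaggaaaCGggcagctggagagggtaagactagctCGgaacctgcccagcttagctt

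None of Slc9a2, Cftr, Scnn1g and Scnn1b was called between obese and control mice, the groups that the DMR list compares. Slc26a3 (62.0 kb to the nearest DMR), Aqp8 (182 kb), Car4 (257 kb), Slc9a3 (398 kb) and Car1 (603 kb) had no DMR within 50 kb.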

How the data were processed

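RNA was sequenced from the colonic epithelium of 15 mice, 5 per group, with a stranded mRNA kit and paired 50-base reads. Per the submitters' processing notes, reads were trimmed with cutadapt and mapped to mm10 with TopHat2 2.0.4, and the authors deposited raw counts per gene from HTSeq. The annotation release and the strand setting were not given in the sources used here. The deposited tables of the authors' own DESeq2 comparisons (fold changes and p-values) and the bisulfite amplicons were not used.

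The test was the quasi-likelihood test of edgeR 4.0.16 (R 4.3.3) on the counts, with filterByExpr (minimum count 10), TMM scaling and 1 fit of all 15 libraries on the group, and p-values were adjusted by Benjamini-Hochberg over 12961 genes. CPM were scaled by TMM, with 2 as the prior count on the log2 scale. DESeq2 1.42.0, other scalings and filters and leaving out each mouse were alternatives. DMRs were deposited without values per mouse, from Bismark and a Rao-Scott test. The members and lists were chosen with earlier results of these data known. Besides the members, the genes named were the called transport genes with the smallest p (at most 6 per comparison), the 3 genes most like each of 4 members, with a mean of at least 50 counts, and defining markers.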

Additional observations from a re-analysis of the deposited data

Results flagged for a closer look

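Each of the 30 groups of 5 values, 10 genes in 3 groups, was searched for a mouse far from the other 4, and 2 mice stood out where chance would give 1.5. Slc26a3 in formerly obese replicate 5 was at 1763.8 CPM, above the other 4 formerly obese mice at 1354 to 1386 CPM, and without this mouse the log2 fold change was 0.33 against control mice, no longer called, and 0.54 against obese mice, still called. Scnn1b in control replicate 4 was at 5.17 CPM, below the other 4 control mice at 11.4 to 12.1 CPM, and without this mouse the difference of obese from control mice went from 0.13 to -0.04 and that of formerly obese from control mice from -0.12 to -0.29 on the log2 scale, with no call in either. Control replicate 4 also had the highest Car1 and the lowest Scnn1g of its group.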

How the results depend on the processing

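The number of members called stayed at 0 between obese and control mice in all settings. It was 3 in both comparisons of formerly obese mice, and ranged from 2 to 4 against control and from 2 to 4 against obese mice when 1 mouse was left out. With an adjusted p under 0.05 and no fold cutoff it was 1 in both (Slc9a3 against control and Slc26a3 against obese mice), and with the posterior Hox score as a covariate it was 0 in both. Replicate numbers are shared by label only, and same-numbered libraries correlated at -0.23 to 0.33 after removing group means. Blocking on the replicate number called 0, 4 and 3 members, adding Car1 at 0.87 against control mice, with Scnn1g there at -0.037. Of the wider transport genes, 2 were called between obese and control mice, 1 with the stricter p, 1 with genes required to have 10 counts in each library, 1 with the Hox score and 1 to 5 leaving out a mouse. Against control mice, 6 became 0 with the Hox score and 3 to 10 leaving out a mouse, and against obese mice 8 became 0 with the stricter p, 0 with the Hox score and 2 to 10 leaving out a mouse. The cause of these changes was not tested. Members with a DMR numbered 2 within 10 kb and 4 within 50 kb.

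Values near 0 changed sign when a mouse was left out or the processing changed, and with the Hox score larger values changed sign too. In obese against control mice, leaving out a mouse gave log2 fold changes of -0.023 to 0.50 for Car1, -0.091 to 0.040 for Car4, -0.043 to 0.018 for Cftr, -0.037 to 0.19 for Scnn1b, -0.028 to 0.036 for Slc9a2 and -0.11 to 0.19 for Slc9a3. Slc9a2 was 0.00207 under the filter of 10 counts per library and 0.0090 after removal of the GC trend. In formerly obese mice, Cftr ranged from -0.056 to 0.0043 against control and -0.041 to 0.014 against obese mice, and Scnn1g from -0.27 to 0.35 against control mice. With the Hox score, the signs turned for Car1 (-0.35, -0.48 and -0.13 in the 3 comparisons), Cftr (0.024, 0.0658 and 0.0421), Scnn1a (0.019) and Slc9a3 (-0.13) in obese against control mice, Scnn1b (0.40 and 0.032) in formerly obese mice against control and obese mice, and Car12 (-0.19) and Sgk1 (-0.13) in formerly obese against control mice. Without the score, Car1 was at 0.18, 0.80 and 0.62 in the 3 comparisons. Car12 and Sgk1 were at 0.43 and 0.40 against control mice and were called there. Depth limits Scnn1g, at 23 to 218 counts, Scnn1b, Slc4a11 and Car3. Without knowledge of the strand setting, counts of genes with antisense partners are uncertain.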
